A study of Mus musculus with 17 samples.

Results

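Of the CUT&RUN peaks that the LIN54 antibody gave in mouse bladder epithelium, 1553 lay away from gene ends, recurred in all 5 LIN54 libraries and were not matched by the STAG2 antibody in all 4 of its libraries. They were drawn from 348160 peaks of LIN54-WT replicate 1 on chromosomes 1 to 19. A peak was kept when its summit, the base of highest signal, lay within 250 bp of a summit in each of the other LIN54 libraries and more than 2000 bp from either end of any protein-coding gene. A peak with a summit within 250 bp in all 4 STAG2 libraries was left out. In total 4923 peaks recurred in the 5 LIN54 libraries, and the rest of them were 672 distal regions shared with STAG2 and 2698 regions at gene ends. The regions were thus chosen by LIN54 and STAG2 peaks, so values of both antibodies are a description, and tests were made on p130 alone. Of all 318335 distal peaks of LIN54-WT replicate 1, 12.5% and 12.1% had a LIN54 summit in WT replicates 2 and 3, and 9.68% and 10.9% in KO replicates 1 and 2.

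LIN54 is the DNA-binding subunit of MuvB, the core that joins the pocket protein p130 and E2F4 with its partner DP to form DREAM, which keeps cell cycle genes silent in resting cells. It recognises the CHR element, often found beside a CCAAT box at promoters of mitotic genes, whereas p130 reaches chromatin through its partners. STAG2 belongs to cohesin, whose ring keeps sister chromatids together and forms chromatin loops, and it is often lost in bladder cancer. In CUT&RUN, a nuclease tethered to an antibody cuts out the chromatin around the bound protein, and the released fragments are sequenced.

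The urothelium, the lining of the bladder, was peeled from mice with the genotype Stag2-WT (here WT) or Stag2-KO (here KO), all taken 1 week after TMX induction, with about 500000 cells for each condition. The antibody against STAG2 was used in 2 libraries of each genotype, that against LIN54 in 3 of WT and 2 of KO, and that against p130 in 3 of each, all labelled biological replicates. The Cre driver and its cell type, the age of the animals and whether mice were pooled are not given in the sources used here. The labels put STAG2 and LIN54 in batch 1, p130-WT replicate 1 in batch 2 and the remaining 5 p130 libraries in batch 3.

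Each of 15 peak lists had 285257 to 506896 peaks on these chromosomes, of which 313 to 25604 reached q 0.01, so most listed peaks were weak. Their lowest background coverage, a measure of depth recovered from the lists, was 1.28 to 2.03 fragments per base. A region without a summit within 250 bp in a library may have one farther away or one not detectable at that depth, so a missing summit does not show that the protein was absent. In bulk tissue, fewer cells with a bound protein and less protein bound per cell cannot be told apart. As to the tissue, a LIN54 summit lay within 500 bp of a gene end in all 3 WT libraries at 11 of 22 luminal urothelial genes, beside 24.8% of all protein-coding genes, at 1 of 12 basal urothelial, 3 of 10 fibroblast, 1 of 8 smooth muscle, 2 of 10 immune and 1 of 8 endothelial genes.

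Regions that are distal by the ends of genes can still lie at starts inside genes. Of the 1553 regions, 81 (5.22%) had their summit in a RefSeq promoter window, 250 bases before to 50 after an annotated start, beside 0.288% of all distal peaks. Windows of protein-coding genes held 60 of them and windows of long noncoding RNA genes 23. Of the distal regions shared with STAG2, 8.18% lay in such a window, and of the gene-end regions 55.3%. The windows below belong to the regions with the highest LIN54 enrichment in a window (Lrif1, Aptx and Gm34655), to the one with p130 in all 6 libraries (Tpm3) and to the stronger in LIN54 of those with neither STAG2 nor p130 in any library (Tpst1). They are shown 5′ to 3′ along the strand of the gene, from RefSeq on GRCm38.p6, the assembly of mm10, with CCAAT boxes (CCAAT, or ATTGG on the other strand) and SP/KLF boxes (GGGCGG, or CCGCCC on the other strand) in capitals.

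Lrif1, chr3:106721432-106721731, plus strand: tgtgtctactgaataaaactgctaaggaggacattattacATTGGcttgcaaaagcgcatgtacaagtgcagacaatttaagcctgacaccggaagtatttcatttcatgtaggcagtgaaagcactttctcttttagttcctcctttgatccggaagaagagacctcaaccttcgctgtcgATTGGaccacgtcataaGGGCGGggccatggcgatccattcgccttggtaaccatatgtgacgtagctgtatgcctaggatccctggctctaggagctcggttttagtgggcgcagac
Aptx, chr4:40702867-40703166, minus strand: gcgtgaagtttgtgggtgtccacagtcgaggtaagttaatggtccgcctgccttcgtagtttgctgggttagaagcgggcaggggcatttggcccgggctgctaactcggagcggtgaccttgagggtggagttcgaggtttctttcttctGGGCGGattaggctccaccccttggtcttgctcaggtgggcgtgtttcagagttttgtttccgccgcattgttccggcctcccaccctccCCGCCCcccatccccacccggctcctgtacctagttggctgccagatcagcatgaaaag
Gm34655, chr9:121277497-121277796, plus strand: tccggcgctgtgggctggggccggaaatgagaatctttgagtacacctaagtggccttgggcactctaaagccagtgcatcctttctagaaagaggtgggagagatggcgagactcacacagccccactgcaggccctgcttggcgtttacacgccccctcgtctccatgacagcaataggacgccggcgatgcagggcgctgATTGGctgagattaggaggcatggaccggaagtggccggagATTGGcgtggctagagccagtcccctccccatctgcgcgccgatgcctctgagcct
Tpm3, chr3:90079271-90079570, plus strand: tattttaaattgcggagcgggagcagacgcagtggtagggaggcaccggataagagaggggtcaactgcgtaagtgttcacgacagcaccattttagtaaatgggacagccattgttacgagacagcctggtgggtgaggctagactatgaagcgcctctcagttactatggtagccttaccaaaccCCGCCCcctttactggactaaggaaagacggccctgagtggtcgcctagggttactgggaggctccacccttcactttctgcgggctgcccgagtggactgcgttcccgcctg
Tpst1, chr5:130079120-130079419, plus strand: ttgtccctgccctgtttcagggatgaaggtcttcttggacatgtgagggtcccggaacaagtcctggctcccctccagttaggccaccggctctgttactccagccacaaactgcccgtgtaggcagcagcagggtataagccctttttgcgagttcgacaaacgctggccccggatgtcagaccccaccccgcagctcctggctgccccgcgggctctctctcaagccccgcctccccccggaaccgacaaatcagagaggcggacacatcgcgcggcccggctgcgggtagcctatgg

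Lrif1, which encodes a chromatin protein of silenced regions, had its LIN54 summit 24 bp after the start, and CCAAT boxes at positions 41 and 183 and an SP/KLF box at 200, counted from the 5′ end of the window. Aptx, a gene of DNA strand-break repair, had its summit 188 bp before the start and SP/KLF boxes at positions 152 and 242. Gm34655, a long noncoding RNA gene, had its summit 159 bp before the start and CCAAT boxes at positions 204 and 245. In Tpm3, a tropomyosin gene, the summit lay 62 bp before the start and an SP/KLF box at position 188. In Tpst1, an enzyme gene of tyrosine sulfation, it lay 151 bp before the start, with neither box. The summits at Lrif1, Aptx, Tpm3 and Tpst1 lay 14872, 18562, 6807 and 5892 bp from the nearest end of a protein-coding gene, since these starts are inside the span of the gene.

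Over the 94 distinct windows with a summit, the element that LIN54 binds was not common. A CHR (TTTGAA or TTCGAA, both strands) stood in 12.8% of these windows, beside 18.9% of all 31396 windows on chromosomes 1 to 19. The E2F motif (TTTCCCGC, TTTGGCGC or TTTCGCGC, both strands) stood in 2.13%, beside 1.85% of all windows, and the CTCF motif (searched on both strands) in 2.13%, beside 2.47%. A CCAAT box stood in 46.8% of the windows (37.3% of all), an SP/KLF box in 60.6% (36.0%) and an AP-1 site (TGANTCA, both strands) in 10.6% (7.84%). The motif of FOXA factors, TGTTTAC, stood in 5.32%, beside 3.71% of all windows, that of GATA factors, AGATAA, in 6.38%, beside 11.2%, and that of GRHL factors, AACNGGTT, in 2.13%, beside 2.09%, each on both strands. The windows had a median G+C content of 59.5% and 19 CG dinucleotides, beside 53.0% and 7 in all windows. In windows of shared and of gene-end regions, a CHR stood in 9.84% and 14.3% and a CCAAT box in 50.8% and 60.3%. An SP/KLF box stood there in 68.9% and 74.0%, and the median G+C content was 62.0% and 61.3%. For the CHR, the CCAAT and SP/KLF boxes and G+C content, the differences from all windows are thus not particular to the 1553 regions. An AP-1 site stood in 13.1% of shared and 4.3% of gene-end windows, and a FOXA motif in 4.92% and 2.56%. A GATA motif stood in 6.56% and 3.48%, and an E2F motif in 0.0% and 5.6%. The SP/KLF box itself holds a CG. A match is a stretch of letters and not a bound site, and a missing match says only that these letters are not in the window. The other regions lay in no such window, and their sequence was not analysed here.

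Most of the 1553 regions did carry STAG2 summits in some libraries, so they are regions without a constant STAG2 summit rather than regions without STAG2. A summit was present in 3 STAG2 libraries at 618 regions (39.8%), in 2 at 472, in 1 at 312 and in none at 151 (9.72%). Of all distal peaks, 69.4% had no STAG2 summit in any library. The STAG2 summit was present at 53.8% and 66.8% of the regions in WT replicates 1 and 2, and at 28.3% and 51.4% in KO replicates 1 and 2. All distal peaks had one in 10.2% and 12.3% in WT and 8.51% and 8.72% in KO. KO replicate 1 stood lowest: of the 618 regions with 3 STAG2 libraries, it was the one without a summit at 343 (55.5%), against 130 for WT replicate 1, 98 for KO replicate 2 and 47 for WT replicate 2. When a summit within 500 bp was accepted, 325 of the 1553 regions had one in all 4 libraries.

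Between genotypes, the shares for STAG2 at the regions came close without overlap (53.8% the lowest in WT, 51.4% the highest in KO). The 2 KO libraries lay far from each other. The rule used these same summits, so the values of this paragraph are a description and no test of genotype. Among all distal peaks the shares did not overlap either. At gene-end regions they did, with 72.1% and 86.3% in WT and 57.7% and 77.1% in KO. At q 0.01, STAG2 marked 31.4% and 36.0% of the regions in WT and 2.19% and 18.3% in KO, beside 1.51% and 1.28%, and 0.125% and 0.68%, of all distal peaks. A summit in both WT and neither KO library stood at 160 regions (10.3%, beside 1.27% of all distal peaks), and the opposite at 31 (2.0%, beside 0.589%). The median fold enrichment, the ratio of signal to background that the authors give for a summit, was 3.54 and 3.84 in WT and 2.6 and 3.01 in KO at the regions with a summit. STAG2 summits were thus also listed in animals labelled Stag2-KO, and what the antibody bound there was not tested.

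**Figure D1:**
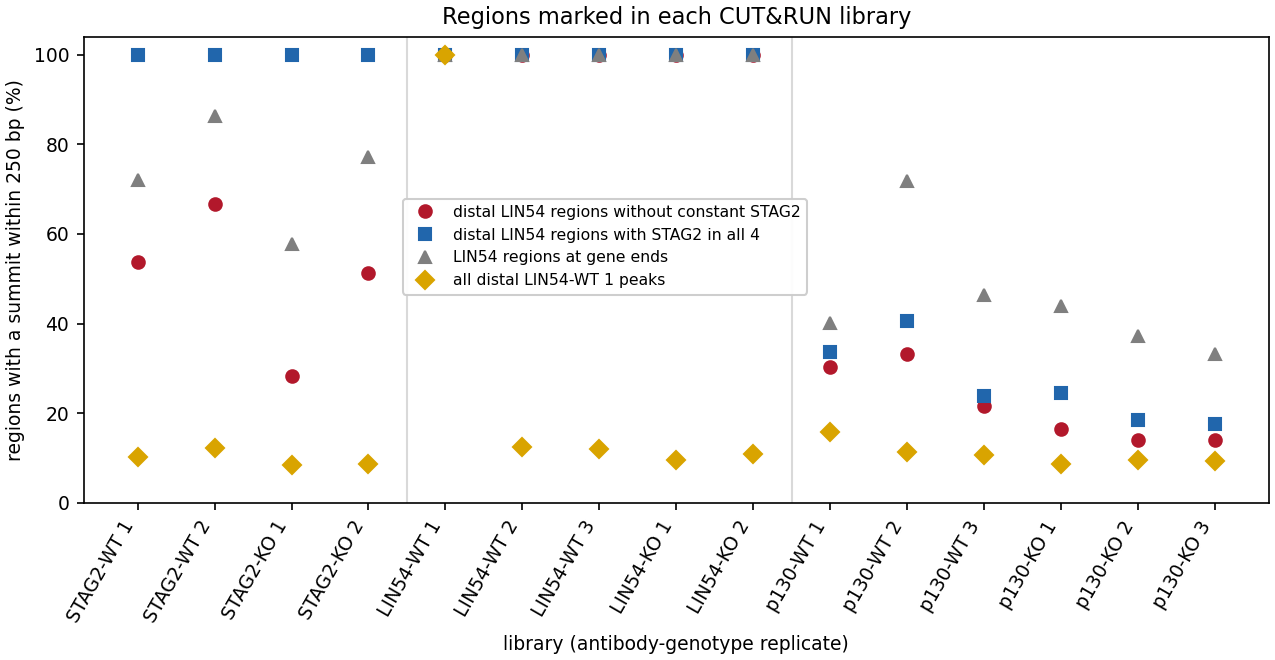
Percent of regions with a summit within 250 bp in each of the 15 libraries, for the 1553 distal LIN54 regions without a constant STAG2 summit (circles), the 672 with one in all 4 STAG2 libraries (squares), the 2698 at gene ends (triangles) and all 318335 distal LIN54-WT replicate 1 peaks (diamonds). By the rule, the first 3 kinds are at 100% in LIN54, where they overlie each other, and the squares in STAG2; the circles lie at 28.3% to 66.8% in STAG2 and at 14.0% to 33.2% in p130, above the diamonds in every STAG2 and p130 library.

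LIN54 enrichment at these regions was modest, and higher in the KO than in the WT libraries. The median fold was 3.18, 3.38 and 2.68 in WT replicates 1 to 3 and 4.17 and 4.15 in KO replicates 1 and 2. At q 0.01, LIN54 marked 28.1%, 36.1% and 8.37% of the regions in WT and 65.1% and 59.3% in KO, and of all distal peaks 0.746%, 0.61% and 0.128% in WT and 1.52% and 1.32% in KO. Both KO libraries lay above all 3 WT libraries in each value, and WT replicate 3 was the weakest. Each fold is scaled to its own library, so genotypes were not tested on it. The same order of medians was seen at gene-end regions, with 3.5 to 4.57 in WT and 6.04 and 5.92 in KO. Among all distal peaks it was 2.33 to 2.46 in WT and 2.52 and 2.49 in KO. KO above WT at a region named below is therefore not particular to it. The share of regions with that order is not given here. The distal regions shared with STAG2 had median folds of 3.87, 4.06 and 2.99 in WT and 5.9 and 5.96 in KO, above the 1553 regions in every LIN54 library.

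The summit of a region held few sequenced fragments. The median was 9, 9 and 7 fragments in WT and 12 and 11 in KO, over a local background of 1.69 to 2.01 fragments. Of the 1553 regions, 316 (20.3%) reached q 0.01 in no LIN54 library, 336 in 1, 355 in 2, 255 in 3, 208 in 4 and 83 (5.34%) in all 5. At the limit of the LIN54 rule, the regions nearest Tram2 and Marcks had their farthest LIN54 summit at 250 bp, and a region nearest 1700012B07Rik, at 251 bp, was left out. At the limit of the distance rule, a region nearest Tspan8 lay 2028 bp from a gene end, and those nearest Gstm4 and Trpm6, at 1995 and 1973 bp, were left out. At the limit of the STAG2 rule, the regions nearest Dennd4c and Tchp had a STAG2 summit at 252 bp, and those nearest Cycs and Fntb, at 250 and 249 bp, counted as shared.

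**Figure D2:**
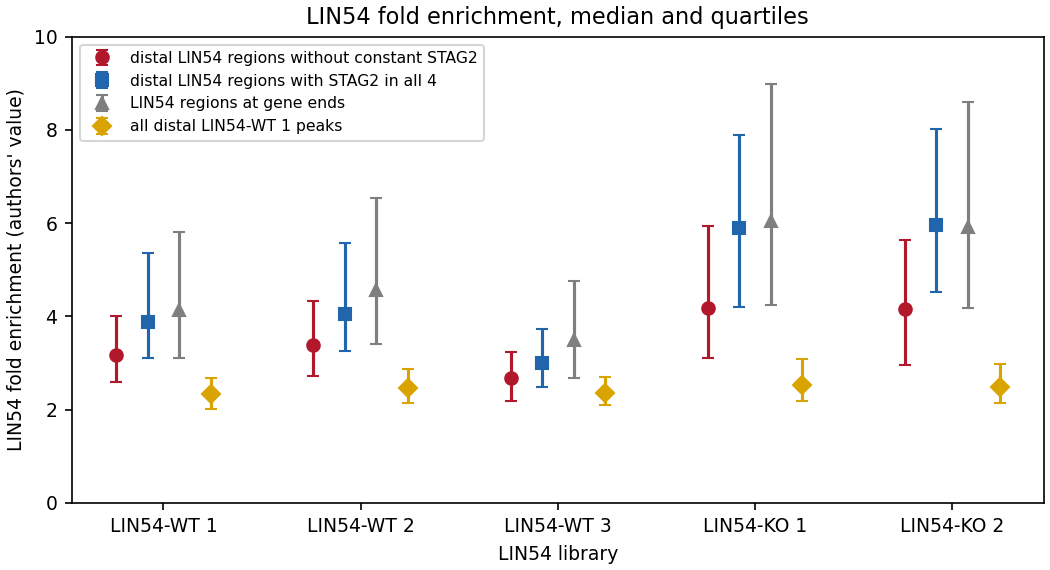
Median LIN54 fold enrichment (points) with the lower and upper quartile (bars) in each LIN54 library, for the same 4 kinds of region. The regions without a constant STAG2 summit (circles) have medians between 2.68 and 3.38 in WT and of 4.17 and 4.15 in KO, below the regions shared with STAG2 (squares) in all 5 libraries.

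Within the rule, LIN54 folds and p130 shares were higher where more STAG2 libraries had a summit. The median LIN54 fold over the 5 libraries was 2.94 at regions with no STAG2 library, 3.16 with 1, 3.33 with 2 and 3.7 with 3, and 4.34 at the shared regions with 4. The mean percent with a p130 summit in WT was 21.9, 26.3, 28.5 and 30.9 for 0 to 3 STAG2 libraries and 32.7 for the shared regions. In KO it was 11.3, 14.6, 14.6, 15.9 and 20.2 in the same order. The SD over libraries was 4.03 to 10.7 in WT and 0.83 to 3.77 in KO (n = 3 each). The same libraries gave every share, so this SD is not the spread of a step. The order was not tested.

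**Figure D3:**
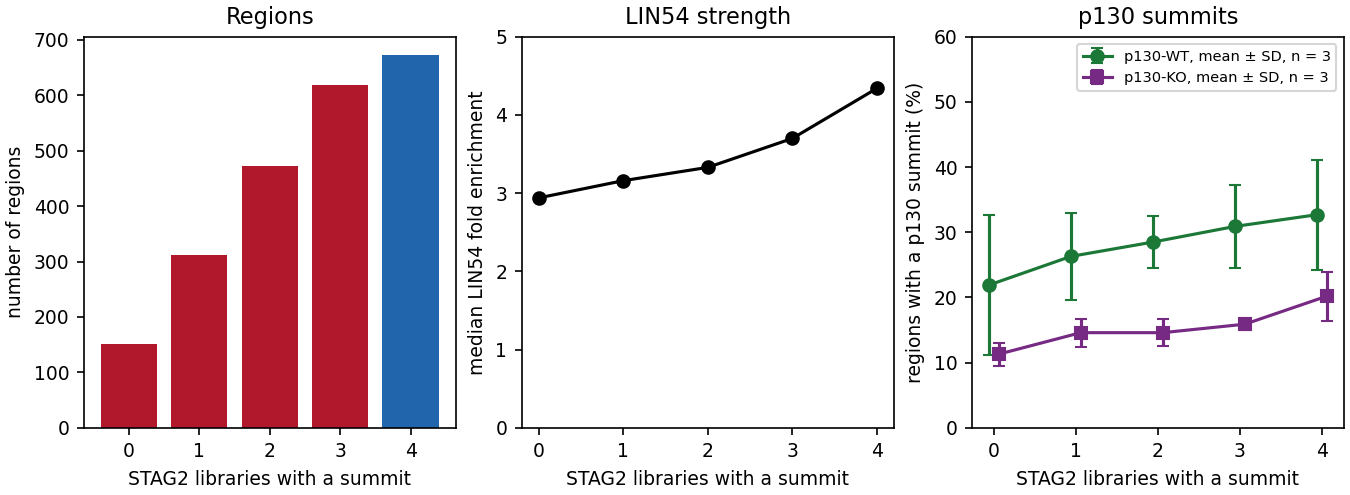
Regions by the number of STAG2 libraries with a summit: their number (left; red bars are the 1553 regions, the blue bar the 672 shared ones), the median LIN54 fold (middle) and the percent with a p130 summit (right; mean and SD of 3 WT and of 3 KO libraries). The LIN54 fold goes from 2.94 at 0 to 4.34 at 4 STAG2 libraries, and the p130 mean of WT from 21.9% to 32.7%. The error bars of WT overlap, and they give the spread between libraries, not that of a step.

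The strongest regions included some inside or beside genes of signalling, DNA repair and the immediate early response. Among the 10 leading regions by mean log2 fold over the 5 LIN54 libraries, which was 3.29 to 4.21, were those nearest Mast3, Ssc5d, Anxa2, Lrif1, Btbd11, Eva1a, Aptx and Fos. Of these 8, the regions at Eva1a and Fos lay outside the gene and the other 6 inside it.

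Mast3, a microtubule-associated kinase gene, held the leading region (chr8:70792488-70793359, 12330 bp from a gene end). Its LIN54 fold was 20.2, 17.5 and 10.1 in WT and 13.8 and 44.1 in KO, and the high mean of KO (29.0 ± 21.4, SD, n = 2, against 15.9 ± 5.23 in WT, n = 3) rested on KO replicate 2 alone. STAG2 had folds of 4.53, 4.9 and 4.03 there in WT replicates 1 and 2 and KO replicate 1, and no summit in KO replicate 2.

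Fos, an AP-1 transcription factor gene that growth signals switch on within minutes, had its region 18539 bp outside the gene (chr12:85454859-85456056). LIN54 folds there were nearly level, at 10.1, 10.7 and 8.44 in WT and 10.4 and 9.5 in KO, and the genotypes overlapped. STAG2 was listed in WT replicate 2 (fold 7.49) and KO replicate 2 (2.31), and p130 in WT replicate 2 alone (4.64).

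At the Lrif1 start printed above, LIN54 folds were 10.6, 7.63 and 9.65 in WT and 11.8 and 11.9 in KO, and p130 folds 2.42, 4.26 and 2.65 in WT and 2.51 in KO replicate 1. At the Aptx start, LIN54 folds were 5.54, 9.23 and 5.88 in WT and 17.0 and 18.1 in KO, so that KO lay above WT without overlap. The medians over the 1553 regions had the same order. Aptx had a p130 summit in WT replicate 2 alone (2.36). Btbd11 held a region 124602 bp from the nearest gene end (chr10:85535302-85536087) that no p130 library marked and that STAG2 marked in KO replicate 2 alone (2.17). Its LIN54 folds were 9.05, 11.6 and 3.95 in WT and 12.5 and 20.8 in KO. The regions at Ssc5d, a secreted scavenger receptor gene, Anxa2, a gene of a calcium-dependent membrane-binding protein, and Eva1a had mean LIN54 folds between 8.89 and 10.2 in WT, and between 15.1 and 17.5 in KO.

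**Figure D4:**
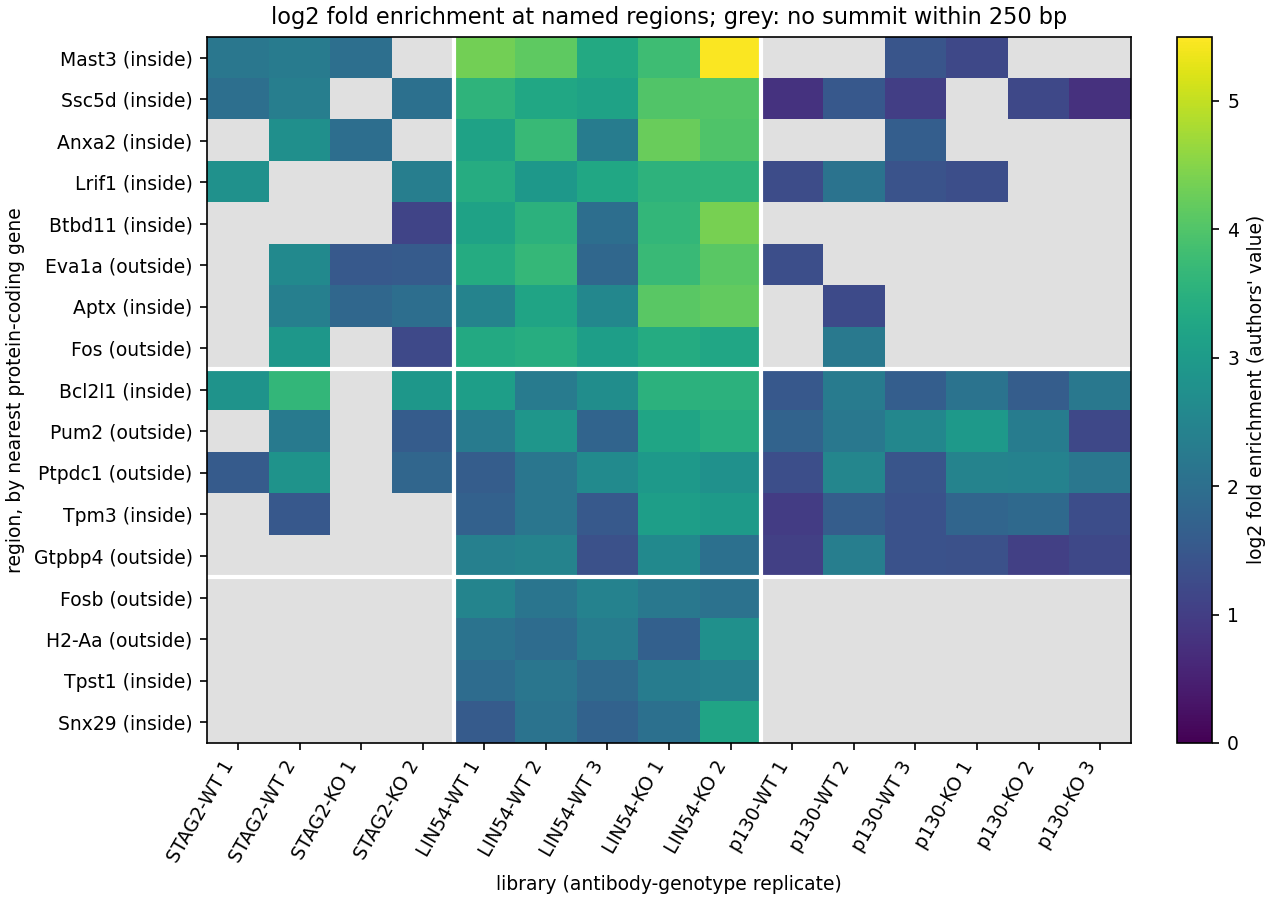
log2 fold enrichment (colour, the authors' values) in the 15 libraries at 8 of the 10 strongest regions (top), 5 with p130 in all 6 libraries (middle) and 4 with neither STAG2 nor p130 (bottom), named by the nearest protein-coding gene, with grey for no summit within 250 bp. LIN54 is filled throughout by the rule, brightest at Mast3 in LIN54-KO replicate 2 (fold 44.1), whereas STAG2 and p130 are patchy in the top block.

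p130 asks whether the pocket protein of DREAM accompanies LIN54 at these regions. It marked a minority of them, more than other distal peaks and fewer than regions at gene ends. In WT replicates 1 to 3, 30.3%, 33.2% and 21.6% of the 1553 regions had a p130 summit within 250 bp, beside 15.8%, 11.3% and 10.6% of all distal peaks. In KO replicates 1 to 3, it was 16.4%, 14.0% and 14.0%, beside 8.76%, 9.52% and 9.29%. Every WT library was thus above every KO library, at the regions and among all distal peaks. As a ratio to all distal peaks, the share was 1.92, 2.94 and 2.04 in WT and 1.87, 1.47 and 1.51 in KO, again without overlap.

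The mean share was 28.4% ± 6.0 over the 3 WT libraries and 14.8% ± 1.39 over the 3 KO libraries (SD), a difference of −13.5 percentage points with a two-sided exact permutation p = 0.1 (adjusted p = 0.1 over 3 tests), the smallest that 3 against 3 libraries allow. The test could therefore not reach 0.05. The difference in the ratio to all distal peaks was −0.49 on the log2 scale (exact permutation p = 0.1). Within batch 3, with 2 WT and 3 KO libraries, the share differed by −12.6 points (exact permutation p = 0.1). With p130 peaks at q 0.01 the difference was −0.515 points, with the 20000 best p130 peaks of each library −3.09 and with a window of 100 bp −7.23 (exact permutation p = 0.1 for each). Batch 2 holds 1 WT library and no KO library, so it gives no value of its own. At the 151 regions with no STAG2 summit, the share averaged 21.9% ± 10.7 over the WT libraries and 11.3% ± 1.75 over the KO libraries (SD, n = 3 each), a difference of −10.6 points with an exact permutation p of 0.3.

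Compared with the 672 distal regions shared with STAG2, p130 was listed less often at the 1553 regions in all 6 libraries. Shared here means a STAG2 summit in all 4 libraries, those of KO included. The 1553 regions include the 160 with a summit in both WT and neither KO library. The comparison is thus not one of regions with STAG2 against regions without it. The shared regions had a p130 summit in 33.6%, 40.6% and 23.8% in WT and 24.6%, 18.6% and 17.6% in KO. The paired difference was −4.88 points on average (SD 2.4, n = 6, from −8.13 in KO replicate 1 to −2.17 in WT replicate 3), with a two-sided exact permutation p of 0.031, the smallest that 6 libraries allow, and an adjusted p of 0.0469. The difference moved with LIN54 strength. Among regions over the median LIN54 fold of the 1553, it was −3.58 points (lower in 5 of 6 libraries, exact permutation p = 0.0625; 776 against 545 regions). Among those up to it, it was 0.428 points (lower in 3 of 6, exact permutation p = 0.75; 777 against 127 regions), and regions with exactly 3 STAG2 libraries differed from the shared ones by −3.05 points (exact permutation p = 0.0938). The call also ended with a p130 window of 500 bp (−3.85 points, exact permutation p = 0.0625). It held (adjusted exact p = 0.0469 in all 3 cases) at −0.841 points with p130 peaks at q 0.01, −2.19 with the 20000 best p130 peaks and −9.91 for the regions with no STAG2 summit.

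Compared with the 2698 regions at gene ends, the gap was wider. There p130 was listed in 40.2%, 71.9% and 46.4% in WT and 43.9%, 37.3% and 33.3% in KO. The 1553 regions were lower in 6 of 6 libraries, by −23.9 points on average (SD 9.49, n = 6, from −38.7 in WT replicate 2 to −9.91 in WT replicate 1; exact permutation p = 0.031, adjusted p = 0.0469). The gap was −8.4 points with p130 peaks at q 0.01 (adjusted exact p = 0.0469), and the adjusted exact p was 0.0938 with a window of 500 bp. With any 1 p130 library left out, 5 libraries remain and an exact permutation p under 0.0625 is out of reach for either comparison, so batch 3 alone gave no call (−5.18 and −26.7 points).

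**Figure D5:**
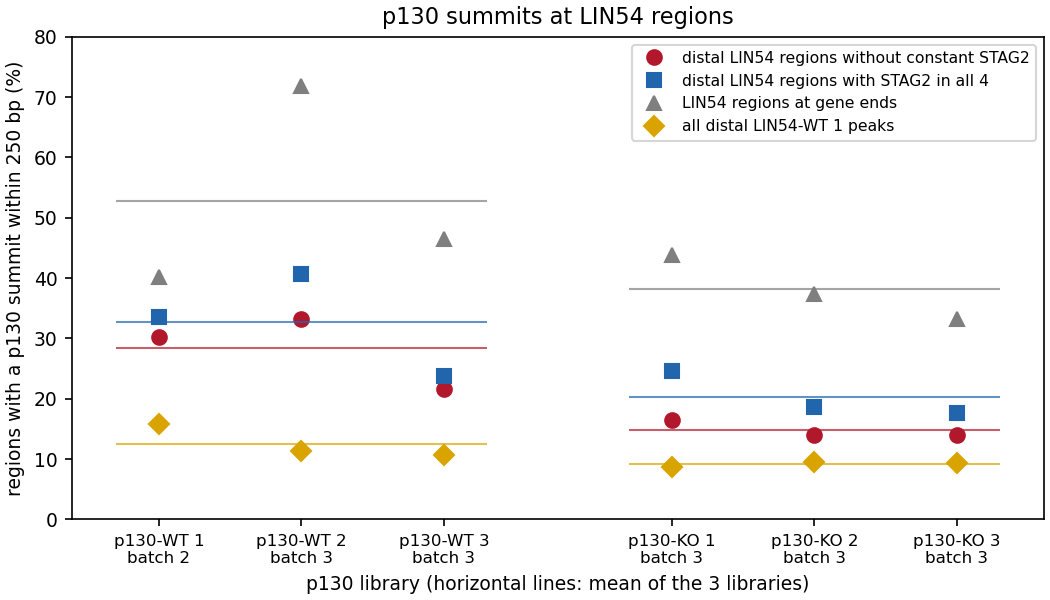
Percent of regions with a p130 summit within 250 bp in each p130 library, by genotype and batch, with horizontal lines for the mean of 3 libraries, for the 1553 regions (circles), the 672 shared with STAG2 (squares), the 2698 at gene ends (triangles) and all distal peaks (diamonds). The circles lie at 21.6% to 33.2% in WT and 14.0% to 16.4% in KO, below the squares in each library.

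Few regions kept p130 across libraries. No p130 library marked 396 of the 1553 regions (25.5%, beside 51.4% of all distal peaks). Summits in 1, 2 and 3 libraries stood at 598, 344 and 161 regions (38.5%, 22.2% and 10.4%, beside 34.8%, 11.3% and 2.18%). Those in 4, 5 and all 6 libraries stood at 35, 12 and 7 (2.25%, 0.773% and 0.451%, beside 0.278%, 0.0298% and 0.0088%). Of the distal regions shared with STAG2, 1.79% had p130 in all 6 libraries, and of the gene-end regions 10.3%. p130 summits at the regions were weak: q 0.01 was reached at 8, 24 and 9 regions in WT and 7, 3 and 7 in KO (0.515%, 1.55%, 0.58%, 0.451%, 0.193% and 0.451%), beside 0.0157%, 0.0289%, 0.0116%, 0.0135%, 0.00754% and 0.00911% of all distal peaks. The median fold was 2.36, 2.61 and 2.49 in WT and 2.41, 2.31 and 2.25 in KO.

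The 7 regions with p130 in all 6 libraries had as nearest gene Bcl2l1, Pum2, Ptpdc1, Tpm3, Gtpbp4, Hsf2 and Rpp21. Bcl2l1 encodes the anti-apoptotic protein Bcl-xL, and its region (chr2:152830298-152831726) lay inside the gene, 2371 bp from an end. Its p130 folds were 2.86, 4.85 and 3.12 in WT and 4.24, 3.08 and 4.61 in KO, and its LIN54 folds 8.45, 4.87 and 6.48 in WT and 11.5 in both KO libraries. STAG2 was also high there, at 7.08 and 12.5 in WT and 7.53 in KO replicate 2, with no summit in KO replicate 1 alone.

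Pum2, which encodes an RNA-binding repressor of translation, had its region 33106 bp away (chr12:8640799-8641175), with p130 folds of 3.35, 4.58 and 5.87 in WT and 7.71, 4.98 and 2.29 in KO. At the region nearest Ptpdc1 (chr13:48546475-48547019), p130 folds were 2.51, 5.74 and 2.74 in WT and 5.51, 5.42 and 4.51 in KO. At the Tpm3 start printed above they were 1.96, 3.09 and 2.62 in WT and 3.48, 3.67 and 2.45 in KO. In each of these 4 regions the genotypes overlapped in p130.

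The regions nearest Gtpbp4, a gene of ribosome assembly, and Rpp21, which encodes a subunit of RNase P, differ from the others in their background. They are among 6 of the 1553 regions where the local background was over 10 fragments in every LIN54 library, whereas the median background was 1.69 to 2.01. The summit nearest Gtpbp4 held 312, 322 and 164 fragments in WT and 544 and 357 in KO over backgrounds of 57.3 to 88.4, and its folds were 5.28, 5.54, 2.58, 6.1 and 4.07. The highest count was at the region nearest Esp38 (chr17:39847472-39848867), whose summit lies within the annotated ribosomal RNA gene copy Rn18s-rs5, with 641, 503 and 363 fragments in WT and 840 and 591 in KO. The other 3 lay nearest Zc3h7a, Pex2 and Cdk8. Outside these 6, no region exceeded 141 fragments in a LIN54 library. How reads of repeated sequence were handled is not given in the sources used here.

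p130 was listed in all 3 WT and no KO library at 32 regions (2.06%, beside 0.223% of all distal peaks) and in all 3 KO and no WT library at 7 (0.451%, beside 0.102%). Among the distal regions shared with STAG2 these shares were 2.83% and 0.298%. By mean p130 fold, the regions of WT alone were led by those nearest Ifna13, Edem1, Tex44, Smarce1 and Cpne8. At Ifna13, an interferon gene (chr4:88640987-88642113), p130 folds were 2.73, 10.4 and 2.51, so the high mean came from WT replicate 2. Its p130 summits held 36, 86 and 28 fragments, against medians of 7, 7 and 6 at the regions. Its LIN54 summits held 107, 85 and 47 fragments in WT and 141 and 120 in KO, at folds of 6.24 to 8.43. The local background there was thus above that of most regions, though not over 10 fragments in every LIN54 library. At Edem1, a gene of protein quality control in the endoplasmic reticulum, p130 folds were 3.89, 6.05 and 3.39. At Smarce1, which encodes a subunit of the BAF chromatin remodeller, they were 3.01, 4.09 and 2.56.

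The regions of KO alone were led by those nearest Top1, the gene of DNA topoisomerase I, Nktr, Zfp326, Tnrc6a, a gene of miRNA silencing, and Vps52, a gene of vesicle tethering. p130 folds in KO were 2.61, 2.72 and 2.24 at Top1 and 2.29, 3.34 and 1.78 at Tnrc6a. None of the 7 regions of KO alone reached q 0.01 in a p130 library, and of the 32 of WT alone 2 to 4 did per WT library. In KO alone, the median fold was 2.24 to 2.49, and in WT alone 2.44 to 2.83 (in the libraries with the summit).

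At 55 regions (3.54%, beside 37.3% of all distal peaks), neither STAG2 nor p130 was listed in any library, which does not show that they were absent. Among the leading ones were the regions nearest Fosb, an AP-1 gene, H2-Aa, a class II antigen presentation gene, Tpst1 and Snx29, a sorting nexin gene. At Fosb (chr7:19319547-19320516, 9873 bp from an end of the nearest gene), LIN54 folds were 5.57, 4.43 and 5.41 in WT and 4.62 and 4.22 in KO, with 11 to 19 fragments. At the Tpst1 start printed above they were 3.86, 4.46 and 3.75 in WT and 4.99 and 5.27 in KO, with 10 to 15 fragments. Both KO libraries lay above the WT libraries at Tpst1, as in the medians over the 1553 regions, and the genotypes overlapped at Fosb.

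More of the regions lay inside genes, and closer to gene ends, than distal peaks at large. The summit lay inside a protein-coding gene at 838 regions (54.0%, beside 44.5% of all distal peaks and 48.5% of the shared regions). The median distance to a gene end was 18465 bp, against 22166 bp for the shared regions and 46973 bp for all distal peaks. Between 2000 and 10000 bp from an end lay 524 regions (33.7%), up to 50000 bp 643 (41.4%), and beyond that 386 (24.9%). In the same order, the shares were 18.9%, 32.4% and 48.7% of all distal peaks, and 28.0%, 46.9% and 25.1% of the shared regions. No regions merged within 500 bp, so the 1553 are separate loci, and 172 lay within 20000 bp of another. The regions had 1348 nearest genes, of which 1169 had 1 region, and Dst, a cytolinker gene, had the most with 6, before Chd2, a chromatin remodeller gene, with 5.

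Among nearest genes, luminal urothelial and immediate early genes held larger shares of the regions than of all distal peaks, whereas mitotic targets of DREAM did not. Basal urothelial, fibroblast and G1/S genes and DREAM subunits did so too, with few regions each. Of 22 luminal genes, 8 were nearest to 12 regions (0.773%, beside 0.177% of all distal peaks). These were the luminal keratins Krt8 and Krt18, and the transcription factors Elf3, Foxa1, Gata3, Klf5, Pparg and Tbx3. Krt8 and Krt18 shared a cluster of 3 regions from 102007006 to 102018089 on chromosome 15. The strongest of them, 10127 bp from Krt18, had LIN54 folds of 7.67, 5.36 and 4.9 in WT and 10.5 and 7.93 in KO, and the one 2664 bp from Krt8, with 2.99, 3.23 and 3.01 in WT and 4.03 and 4.56 in KO, had no STAG2 and no p130 summit in any library.

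Gata3 had 4 regions, up to 236146 bp away, and the region nearest Tbx3 lay 306094 bp away. The strongest at Gata3 lay inside the gene, 8249 bp from an end, with LIN54 folds of 4.72, 5.59 and 3.81 in WT and 6.45 and 5.97 in KO. Inside Pparg, a nuclear receptor gene of urothelial differentiation, they were 3.87, 7.28 and 2.72 in WT and 4.99 and 8.88 in KO. The genotypes overlapped at Pparg, and at this Gata3 region KO lay above WT, as in the medians over the 1553 regions. Of 12 basal urothelial genes, Itga6, Lamb3 and Trp63 were nearest to 1 region each (0.193%, beside 0.0773%). Markers of other cell types held 3 regions in all: Dcn and Fbln1 of 10 fibroblast genes (0.129%, beside 0.0886%), Kdr of 8 endothelial genes (0.0644%, beside 0.106%), and none of 8 smooth muscle or 10 immune genes (beside 0.0229% and 0.043%). The region nearest Dcn, which lay 165783 bp away, had LIN54 folds of 6.06, 6.43 and 5.97 in WT and 16.1 and 12.3 in KO.

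Of 23 AP-1 and immediate early genes, 10 were nearest to 14 regions (0.901%, beside 0.239%): Atf3, Btg2, Dusp1, Egr2, Egr3, Fos, Fosb, Jun, Klf6 and Myc. Jun had a region 24231 bp away with LIN54 folds of 4.46, 5.62 and 3.4 in WT and 5.69 and 7.75 in KO, without overlap of the genotypes. The Egr2 region lay inside the gene, 3178 bp from an end and in a promoter window, with 3.46, 5.96 and 3.1 in WT and 9.16 and 9.05 in KO. Myc had 3 regions 128752 to 578930 bp away, with folds of 2.11 to 4.04. A nearest gene is a matter of distance, and whether a region acts on it was not tested.

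Genes of DREAM targets, whose ends the rule leaves out, were nearest to few regions and to few distal peaks of any kind. A LIN54 summit lay at an end of 26 of 38 G2/M genes and 22 of 37 G1/S genes in all 3 WT libraries, beside 24.8% of all protein-coding genes. It also lay at 15 of 23 AP-1 and immediate early genes, 7 of 14 genes of DREAM and MuvB subunits and 6 of 12 cohesin genes. The counts for cell type lists are given above. Of the 38 G2/M genes, Aurkb and Kif2c, both of mitosis, were nearest to 1 region each (0.129%, beside 0.135% of all distal peaks). Of the 37 G1/S genes, Ccne1, the gene of cyclin E1, and Mybl2, which encodes the B-Myb partner of MuvB, were nearest to 1 each (0.129%, beside 0.0616%). Of 14 genes of DREAM and MuvB subunits, Mybl2 alone was (0.0644%, beside 0.0421%), and of 12 cohesin genes none (beside 0.0657%). The region 12995 bp from Ccne1 was the strongest of these, with LIN54 folds of 9.4, 7.97 and 7.68 in WT and 5.98 and 6.65 in KO. It is a case where WT lay above KO in every library.

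The regions nearest Aurkb and Kif2c lay at genes of small RNAs. The first, with LIN54 folds of 6.67, 7.47 and 4.59 in WT and 6.7 and 8.14 in KO, had its summit 102 bp from the tRNA gene n-TGtcc6. The second, with 5.83, 7.89 and 3.25 in WT and 7.18 and 6.23 in KO, had it 186 bp from the snRNA gene Gm25099. In all, 11 regions lay within 500 bp of an end of a tRNA gene (0.708%, beside 0.0368% of all distal peaks) and 7 of an snRNA gene (0.451%, beside 0.0484%). Of the distal regions shared with STAG2, 0.446% lay at a tRNA gene and 0.595% at an snRNA gene. Of the gene-end regions it was 0.556% and 0.148%, so small RNA genes are not particular to the 1553 regions. Such genes do not count as protein-coding, so the rule let them pass. All 11 tRNA regions had a STAG2 summit in 1 to 3 libraries and a p130 summit in at least 1, beside 90.3% and 74.5% of the 1553 regions with a summit of each in some library. Of the genes that the RefSeq table lists as snRNA, Rnu3b4 had the highest mean LIN54 log2 fold, 3.19 (folds of 8.72, 9.64 and 4.88 in WT and 14.5 and 10.5 in KO), before Rnu2-10 with 2.92 (6.25, 5.14 and 5.66 in WT and 13.2 and 10.4 in KO).

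An end of a long noncoding RNA gene lay within 500 bp of 70 regions (4.51%, beside 1.21% of all distal peaks and 7.29% of the shared regions). Pseudogenes had 4 (0.258%, beside 0.532%), miRNA genes 2 (0.129%, beside 0.054%) and genes that the RefSeq table lists as snoRNA none (beside 0.0487%). Of the shared regions, 0.298% lay at a pseudogene and 0.149% at a miRNA gene. Members of tRNA and snRNA families have near-identical copies, and how reads that match several of them were assigned is not given in the sources used here.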

How the data were processed

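CUT&RUN libraries for STAG2, LIN54 and p130 were made from Stag2-WT and Stag2-KO mouse urothelium. Peak lists of 15 libraries were analysed; the pMNase controls, 2 of the 17 labelled samples, were not used here. The build was mm10 and the tools named are bcl2fastq, Bowtie2 and MACS2, per the submitters' processing notes. Their versions, and whether peaks were called against a control, are not given in the sources used here.

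The deposited lists give for each peak a fold enrichment, a ratio of pileup to local background, and −log10 p and −log10 q, all of them the authors' values within 1 library. The deposited score was not used. From fold and p, the fragment count and the background at each summit were recovered; in a sample of 2000 summits per library, 100.0% gave a whole count (tolerance 0.0005 in log10), and the lowest background was 1.28 to 2.03 fragments per base. Between lists of the same antibody and genotype, no summit was shared with the same fold.

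Regions were found by summit distance (250 bp) and the RefSeq gene table (GRCm38.p6, 20665 protein-coding genes on chromosomes 1 to 19), which gives neither strand nor exons. The members, lists and tests were chosen with earlier results of these data known. The library was the unit of testing. For p130 shares, two-sided exact permutation tests were made between genotypes by exchanging libraries and between kinds of region by sign flips within a library, with Benjamini-Hochberg adjustment over 3 tests. Replicates are labelled biological, and p-values measure the spread between these libraries alone.

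Regions were named by rule: the 10 highest in mean LIN54 log2 fold, up to 5 each of those with p130 in all 6 libraries, with neither STAG2 nor p130, and with p130 in 1 genotype alone, up to 3 per gene list, and 2 on each side of every threshold of the rule. Hsf2, Rpp21, Zc3h7a, Pex2, Cdk8, Esp38, Dst, Chd2, the small RNA genes and the further genes of a list were named after their values had been seen. Some regions that the rule names are not reported here. The leading regions in a promoter window had their window shown. Same-numbered p130 libraries did not deviate together over the 4923 regions (correlations −0.0415, −0.018 and 0.0278), so replicate numbers were not taken to pair libraries. Alternatives were q 0.01, the 20000 best p130 peaks, summit windows of 100 and 500 bp, a distal limit of 10000 bp, no STAG2 summit in any library, 1 peak per locus, batch 3 alone, a replicate block and leaving out each library. The code was tested on simulated data and ran under Python 3.11.15 with SciPy 1.17.1, NumPy 2.4.6, Matplotlib 3.10.9 and pandas 2.3.3.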

Additional observations from a re-analysis of the deposited data

How the results depend on the processing

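The number of regions rests on the rule: 1029 with a distal limit of 10000 bp, 151 with no STAG2 summit allowed, 437 and 3155 with windows of 100 and 500 bp, and 83 at q 0.01 in all LIN54 libraries. Regions with p130 in all 6 libraries were then 1 (no STAG2), 2 and 15 (100 and 500 bp) and 2 (q 0.01). Those in WT alone were 16 (10000 bp), 2 (no STAG2), 7 and 102 (100 and 500 bp) and 7 (q 0.01), and those in KO alone 0 (no STAG2), 0 (100 bp) and 0 (q 0.01). The share inside a gene was 51.2% (10000 bp), 49.0% (no STAG2) and 57.8% (q 0.01). With each library left out in turn, the regions numbered 1210 to 3603 (highest without LIN54-WT replicate 3; 2548 and 2407 without replicates 1 and 2), of which 5 to 10 had p130 in all p130 libraries kept, 24 to 102 in WT alone (81, 66 and 102 without p130-WT replicates 1, 2 and 3) and 3 to 17 in KO alone (17 without p130-KO replicate 3, 11 without KO replicate 2 or WT replicate 2, 3 without LIN54-WT replicate 1 and 4 without STAG2-KO replicate 1). With a p130 library left out, a pattern asks for fewer libraries, so these p130 counts are then not of the same criterion. The share inside a gene was 52.4% to 55.2%.

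The p130 difference between genotypes was −16.9 to −9.62 points with a library left out (exact permutation p of 0.1 to 0.2), and −13.5 with a replicate block (exact permutation p = 0.25, the smallest it allows). It was −0.515 at q 0.01, −3.09 with the 20000 best p130 peaks, −7.23 and −17.3 with p130 windows of 100 and 500 bp and −10.6 with no STAG2 summit allowed. The difference from the shared regions was −6.3 to −4.23 and that from the gene-end regions −26.7 to −21.0 with a library left out (exact permutation p of 0.031 to 0.0625), −3.85 and −23.1 with a p130 window of 500 bp (adjusted exact p = 0.0938 for both) and −5.18 and −26.7 in batch 3 alone. At q 0.01 they were −0.841 and −8.4, with the 20000 best p130 peaks −2.19 and −17.2, and with no STAG2 summit −9.91 and −29.0. Chosen after the data had been seen, the split by LIN54 fold gave −3.58 above and 0.428 up to the median against the shared regions, and regions with 3 STAG2 libraries gave −3.05. The cause of these changes was not tested, other than that 5 libraries allow no exact permutation p under 0.0625. Motifs in windows of 100 and 500 bases around summits were not run, as no genome of this build was used here. With a median of 6 or 7 fragments at a p130 summit, a weak site may not be detectable.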

Other observations

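The 1553 regions were wider than other distal peaks, with a median width of 483 bp (175 to 3189) against 258 bp for all distal peaks of LIN54-WT replicate 1 and 608 bp for the distal regions shared with STAG2. Per 1000 distal peaks, chromosome 19 held 8.03 of the regions and chromosome 12 the fewest, 3.58. Clusters of 3 or more regions within 20000 bp of the next numbered 9 and held 28 regions. The largest had 4 regions at Chd2, a chromatin remodeller gene, between 73579545 and 73607036 on chromosome 7. Clusters of 3 lay at genes of the cytoskeleton and cell adhesion, Dst and Plec (both cytolinkers), Gsn (gelsolin, which severs actin) and Krt8 with Krt18, and at Gtf2i, a transcription factor gene, Stn1, which serves telomere replication, Arhgef10, and Mideas with Gm46319. These groups were noticed after the data had been seen and were not tested.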
